A study of Mus musculus with 38 samples.

Results

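In ATAC-seq of mouse Tcf21 lineage cells from visceral adipose tissue, 1014 regions carried a peak in both wild-type libraries taken after 1 week of high-fat diet and in none of the other 7 libraries. They were 0.824% of the 123130 regions obtained by merging the peaks of the 9 lists on chromosomes 1 to 19, X and Y wherever peaks overlapped by 1 bp or more. The regions were selected on the peak calls themselves, so their peak strengths and their absence from the other lists are description and were not tested. The RNA of the genes nearest to them was measured in separate libraries that the choice did not use.

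The study profiled cells of the Tcf21 lineage, 5000 sorted by flow cytometry for each library, in wild-type (WT) and Tcf21 knockout (KO) mice. Open chromatin was measured in 2 WT libraries on the diet for 1 week (1W HFD), 2 on it for 12 weeks (12W HFD) and 3 from mice 3 weeks old (3W), with 2 KO libraries at 3W. For RNA there were 2 WT libraries from postnatal day 12 (P12), 7 from 3W, 4 from 1W HFD, 5 from 12W HFD and 2 from mice 6 months old (6M), with 5 KO libraries from 3W and 2 from each diet time. The P12, 3W and 6M mice received regular diet (LabDiet 5001), and the HFD mice received Teklad TD.06414 from 6 weeks of age. All mice, controls included, are described as given tamoxifen to activate a MerCreMer recombinase, whose promoter and age of induction the labels do not give for single samples. No group had the age of the 1W HFD mice on regular diet, so age and diet cannot be told apart, and no open chromatin was measured at 6M or in KO cells on the diet. Nothing in the labels says that replicates came from separate animals, so the tests measure the spread between libraries, which may be technical. The genotype field disagreed with the sample title in 2 of 9 ATAC and 20 of 29 RNA samples, and groups follow the titles. Tcf21 RNA overlapped between genotypes, at 37.6 to 109 TPM (transcripts scaled to the library's total) in WT and 20 to 60.9 in KO at 3W and at 11.3 to 47.4 in WT and 8.1 to 16.4 in KO at 1W HFD.

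ATAC-seq inserts sequencing adapters into accessible DNA, and peaks mark stretches where insertions pile up, commonly promoters and distal enhancers. Tcf21 is a basic helix-loop-helix transcription factor of visceral mesenchyme, and the cells of its lineage include stromal progenitors that can form adipocytes. In adipose tissue such progenitors are often divided into an interstitial Dpp4-expressing population and more committed preadipocytes, and early high-fat feeding is a period in which visceral progenitors are known to divide and differentiate.

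Few of the 1014 regions lay at promoters. The regions reached into the promoter window of a RefSeq gene at 15 places and covered the whole 250 bases upstream of the start in 16 distinct windows. The 4 sequences below are shown because each lay whole inside a region and the RNA of its gene is described next; they were chosen after those values were seen. They are RefSeq sequence of GRCm38.p6 (mm10), printed 5′ to 3′ on the strand of the gene, and capitals mark every match to a short factor motif searched on both strands.
Sult1e1 (chr5:87591612-87591861, minus strand): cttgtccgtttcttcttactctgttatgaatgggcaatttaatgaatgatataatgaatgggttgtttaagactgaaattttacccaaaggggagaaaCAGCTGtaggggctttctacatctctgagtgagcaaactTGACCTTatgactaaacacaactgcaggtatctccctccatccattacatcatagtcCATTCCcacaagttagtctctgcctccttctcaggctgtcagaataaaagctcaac
Lcn2 (chr2:32387740-32387989, minus strand): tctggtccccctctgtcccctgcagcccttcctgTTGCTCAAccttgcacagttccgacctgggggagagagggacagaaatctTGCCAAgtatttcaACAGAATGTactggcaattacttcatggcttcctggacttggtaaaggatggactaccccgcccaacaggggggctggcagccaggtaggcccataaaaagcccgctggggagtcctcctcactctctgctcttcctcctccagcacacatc
Gpr1 (chr1:63214282-63214531, minus strand): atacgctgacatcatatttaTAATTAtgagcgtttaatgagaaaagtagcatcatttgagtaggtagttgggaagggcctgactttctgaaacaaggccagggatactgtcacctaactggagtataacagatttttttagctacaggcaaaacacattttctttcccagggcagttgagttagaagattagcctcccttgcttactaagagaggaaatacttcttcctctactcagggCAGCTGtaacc
Map7d2 (chrX:159458875-159459124, plus strand): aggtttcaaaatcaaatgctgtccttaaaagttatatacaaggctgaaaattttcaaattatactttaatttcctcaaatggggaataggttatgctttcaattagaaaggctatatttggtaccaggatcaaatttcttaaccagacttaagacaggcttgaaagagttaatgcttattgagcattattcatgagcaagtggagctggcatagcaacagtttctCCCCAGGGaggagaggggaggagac

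The Sult1e1 window held the E-box CAGCTG, the nuclear receptor element AAGGTCA on the reverse strand and a TEAD site GGAATG, also on the reverse strand. In the Lcn2 window the matches were TTGCNNAA of C/EBP, the short NFI element TTGGCN on the reverse strand and ACANNNTGT of steroid receptors. Gpr1 carried the homeobox core TAATTA and CAGCTG, and Map7d2 carried CCCNNGGG of EBF. Over the 16 windows, CAGCTG occurred in 4 (13.1% of 32536 promoters of the same length), ACANNNTGT in 4 (5.82%), GGAATG in 3 (12.6%), TTGGCN in 3 (41.5%), TTGCNNAA in 2 (9.57%), CCCNNGGG in 2 (11.9%), AAGGTCA in 1 (4.09%) and TAATTA in 1 (4.84%). Each motif is counted as letters only, and 25 motifs were searched. Median GC content was 50% in the 16 windows and 52.4% in all promoters.

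These 4 genes differed in how their RNA behaved. Sult1e1, encoding the sulfotransferase that inactivates estrogens, lay under a region of 2736 bp (chr5:87589839-87592574) with −log10 q values of 7.86 and 12.81 in the 2 lists. Its RNA measured 1935, 392, 345 and 475 TPM at 1W HFD, against 11.4 to 167 (median 27.7) in the 7 WT 3W libraries and 9.7, 6.08, 2.88, 58 and 29.6 at 12W HFD. Every 1W HFD library was above every library of the other 2 groups. The log2 change was 4.00 ± 0.74 (SE) against 3W (adjusted p = 0.00122, limma) and −5.41 ± 0.80 from 1W to 12W HFD (adjusted p = 3.45e-05, limma). Here and below, changes are on the scale of log2(TPM + 1), which understates the change of low genes, and adjusted p-values come from limma with Benjamini-Hochberg adjustment over all 15659 genes tested.

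Gpr1, a chemerin receptor, was low throughout, at 1.62, 0.16, 3.66 and 2.54 TPM at 1W HFD and 0 to 0.85 (median 0) at 3W. The groups overlapped in one 1W HFD library, and the change of 1.27 ± 0.28 passed (adjusted p = 0.00573, limma; 0.0584 with the 2 groups fitted alone). Gpr1 was 0.68, 0.85, 1.12, 1.07 and 1.29 TPM at 12W HFD and 2.04 and 4.08 at 6M on regular diet. Lcn2, the iron-scavenging lipocalin of the acute phase response, measured 14.2, 5.12, 15.5 and 3.8 TPM at 1W HFD and 0 to 3.39 at 3W without overlap, and did not pass (2.42 ± 0.92, adjusted p = 0.105, limma). Single libraries of other groups were far higher in Lcn2, at 484 TPM in one of 2 KO 1W HFD libraries and 112 in one of 2 WT 6M libraries. Map7d2, a microtubule-associated protein, measured 11.9, 4.8, 5.99 and 2.14 TPM at 1W HFD and 0.1 to 7.43 at 3W (1.32 ± 0.51, adjusted p = 0.114, limma). It was 0 to 1.32 at 12W HFD and the change from 1W HFD was −2.17 ± 0.55 (adjusted p = 0.0136, limma), a call lost without WT 1W HFD replicate 1 (adjusted p = 0.0751) and with a pseudocount of 0.1 (0.0503). Of the other nearest genes with a start inside a region, Phyhipl, Lgals2 and 4430402I18Rik did not pass against 3W (adjusted p = 0.43, 0.812 and 0.754, limma), and Pax6, Wfdc6b, Mfsd6l and Methig1 were too low to be tested. The Map7d2 start used, chrX:159459125, lay well inside the gene (chrX:159414572-159498757), and so did those of Phyhipl and Pax6. TPM per gene does not separate transcripts from such a start.

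The 9 peak lists held 55990 to 93314 peaks covering 75.6 to 172.6 Mb, and the 1W HFD lists covered 172.6 and 136.5 Mb. Peak names began with B in 3 of the 7 other lists and with A elsewhere, and 1284 regions would qualify without those 3 lists. Without WT 1W HFD replicate 1, 3143 regions would qualify, and without replicate 2, 6731. The read depth behind the peaks is not in the files used here.

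The regions were weak peaks. The −log10 q given by the authors' peak caller had a median of 4.93 in replicate 1 and 4.25 in replicate 2, where all peaks of the lists had medians of 15.63 and 14.79. The highest values were 28.95 and 24.48, and 31 and 6 regions fell in the upper part of their list, above its median. Of the 1014, 180 reached 5 in both lists and 25 reached 10. Fold enrichment over local background had medians of 3.73 and 3.79. The regions were 413 to 4886 bp wide (median 975), against a median of 1351 bp for all regions, and the summits of the 2 libraries lay a median of 186 bp apart.

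**Figure D1:**
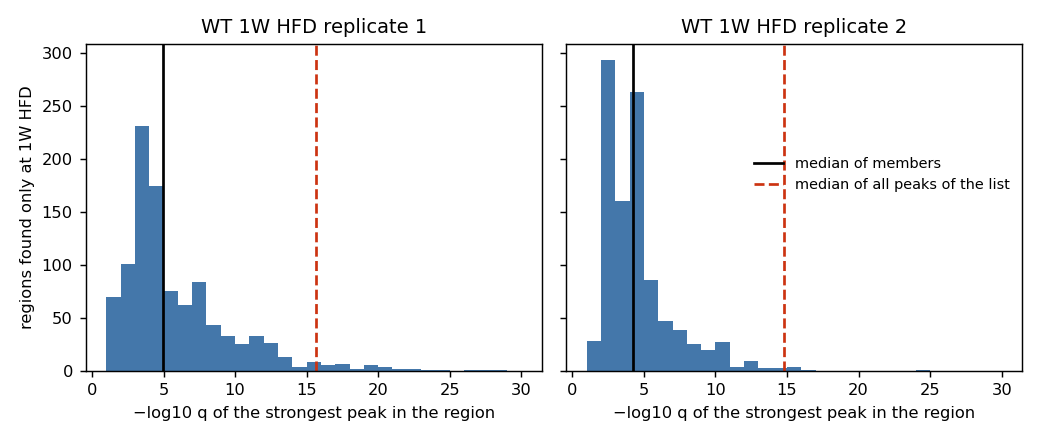
Histograms of the 1014 regions by −log10 q of their strongest peak (x axis, authors' peak caller; y axis, number of regions) in each WT 1W HFD list, with lines at the median of the regions and of all peaks of the list. The regions' medians of 4.93 and 4.25 lie far left of the list medians of 15.63 and 14.79.

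Just outside the rule stood 1627 regions with peaks in both 1W HFD lists and exactly 1 other list. The weaker of their 1W HFD values had a median −log10 q of 3.63, beside 3.55 in the 1014, and the peak in the other list had a median of 4.18. That other list was one of the 12W HFD lists for 528 and 359 of them, a WT 3W list for 207, 41 and 28, and a KO 3W list for 341 and 123. Regions with a 1W HFD peak in both lists numbered 63562 in all, of which the 1014 were 1.6%. A peak of another list lay within 1 kb of 216 of the regions and within 10 kb of 843, and 64 had another of the 1014 within 10 kb.

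Most of the regions were away from transcription starts. RefSeq starts were counted here only if matched to a gene of the RNA tables, and chromosome 18, with 44 of the regions, had none. Shares in every set are therefore minimum values. Of the 15 regions over a RefSeq promoter window, 11 held a matched start. Such a start lay within 1 kb of 16 regions, or 1.58% (95% Wilson interval 0.974 to 2.55, which covers counting error only). The share was 2.33% in the 3008 regions of both 12W HFD lists only, 2.06% in the 1409 regions of all 4 diet lists only, 1.04% in the 672 regions of both KO 3W lists only and 27.7% in the 35747 regions of all 9 lists. Over all 123130 regions it was 9.55%. Within 5 kb the order differed, at 10.2% for the 1W HFD regions (interval 8.45 to 12.2), 7.71% for the 12W HFD regions, 7.59% for both diet times, 3.87% for KO 3W and 32% for regions of all 9 lists. All regions together had 15.4%. The centre of 662 regions (65.3%) fell inside a gene, where the share over all regions was 58%. It was 46.8% for the 12W HFD regions, 54.4% for those of both diet times, 53% for KO 3W and 62.5% for regions of all 9 lists. Chromosome 11 held the most, 90 regions or 1.11% of its regions, chromosome 7 held 41 (0.576%), and none of the 82 regions of chromosome Y was among them.

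**Figure D2:**
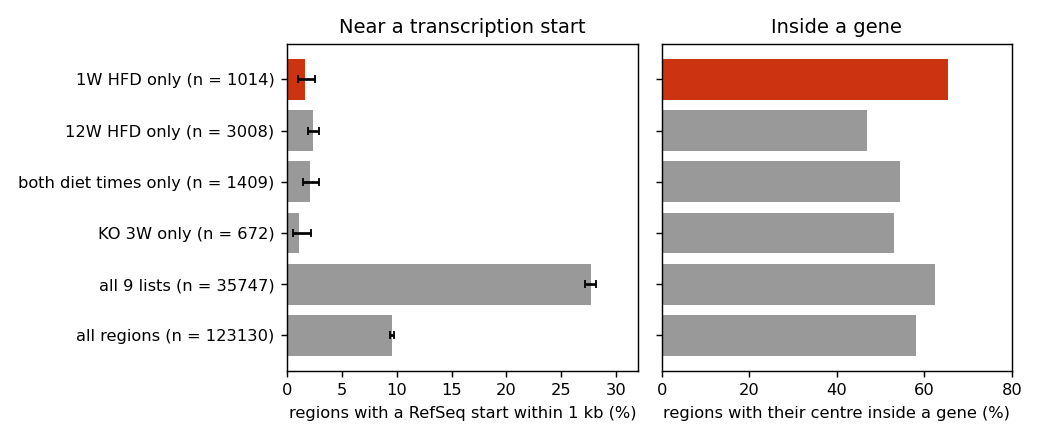
Share of regions near a RefSeq start and share with their centre inside a gene, in percent, for the regions of both 1W HFD lists only and for other sets. Starts are those matched to a gene of the RNA tables, none on chromosome 18. Bars on the first panel's values are 95% Wilson intervals. The 1W HFD regions sit at 1.58% near a start and 65.3% inside a gene.

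Some genes contained 3 or 4 regions, counts that were not set against gene length or against the number of all regions in each gene. Adamts5, Ebf2, Rbms1 and Slit3 each contained 4, and Creb5, Hivep2, Kat6b, Nfia, Plxdc2, Tgfbr2, Ulk4 and Zbtb20 each contained 3. The widest region of all, 4886 bp, lay in Ebf2 (chr14:67320755-67325640). The largest values of the weaker −log10 q belonged to a region upstream of Ggct (chr6:55000669-55001838, 17.54 and 15.8) and one inside Ubfd1 (chr7:122073164-122074580, 20.5 and 15.8). Ggct encodes an enzyme of glutathione breakdown. A region inside Rpn1, a subunit of the oligosaccharyltransferase, had 12.88 and 24.48. Another lay 69.3 kb upstream of Avpr1a, the vasopressin receptor, with 12 and 14.79. Of the 25 strongest regions, 13 were inside a gene and 19 were within 100 kb of the nearest gene start.

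Each region was assigned the gene with the nearest start, or the nearer gene end where the RefSeq table gave no start, which is a link by distance and no evidence of regulation. This gave 905 genes, of which 818 had 1 region, 70 had 2 and 17 had 3 or more. RNA of 686 reached 1 TPM in at least 2 libraries and was tested, and 219 genes were not tested. Between 3W and 1W HFD in WT cells, 64 of the 686 (9.33%) were higher at 1W HFD, where 4.78% of all genes tested were higher, and 25 (3.64%) were lower, where 3.25% of all genes were. The other 597 did not pass. The median log2 change was 0.12 over the 686 and 0.02 over all genes. The share of higher genes was 8.65% for genes nearest to the regions of both 12W HFD lists only, 12.1% for those of both diet times, 3.59% for KO 3W regions and 4.83% for regions of all 9 lists. The lower share of 3.64% was near the background. The higher count was 38 without WT 1W HFD replicate 3 (5.54%, beside 2.52% of all genes), 39 without replicate 4 (5.69%, beside 2.81%) and 71 at most (10.3%, beside 5.63%). The lower count was 14 without replicate 4 (2.04%, beside 1.66%), 15 without replicate 1 (2.19%, beside 2.12%) and 15 without replicate 3 (2.19%, beside 1.73%).

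From 1W to 12W HFD, 61 of the 686 genes (8.89%) were lower at 12W, where 2.39% of all genes tested were lower, and 6 (0.875%) were higher, where 3.54% of all genes were. The median change was −0.15, and −0.05 over all genes. Genes nearest to the 12W HFD regions showed 3.02% lower and 8.71% higher, those of both diet times 4.7% and 4.06%, those of KO 3W regions 4.48% and 2.02%, and those of regions in all 9 lists 2.71% and 2.35%. This comparison and the one against 3W share the 4 libraries at 1W HFD, so one set of high values there enters both. The differences between region sets were not tested.

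**Figure D3:**
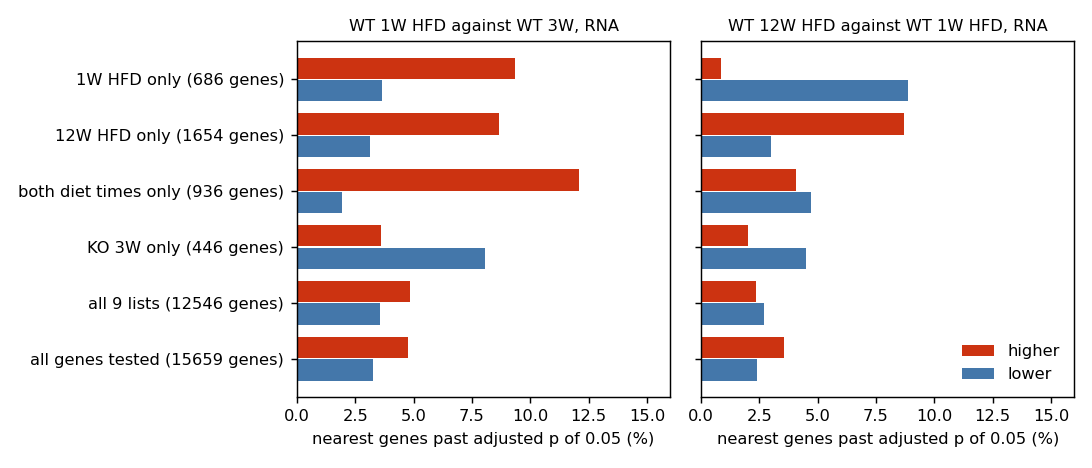
Percent of nearest genes tested that were higher or lower in WT 1W HFD against 3W and in 12W against 1W HFD (limma, adjusted p below 0.05), for each region set and for all genes. For the 1W HFD regions the values are 9.33% higher and 3.64% lower in the first comparison and 0.875% higher and 8.89% lower in the second.

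Markers of the Dpp4-type interstitial progenitors stood near 7 regions. Of the 15 genes of this list, 11 were higher at 1W HFD than at 3W and none was lower, where 4.78% and 3.25% of all genes tested were, and the median change was 1.57, beside 0.02 over all genes. From 1W to 12W HFD 9 were lower and none was higher, where 2.39% and 3.54% of all genes were, and the median was −1.37, beside −0.05. Against 6M on regular diet none of the 15 passed in either direction in limma, where 3.88% of all genes were higher and 1.99% lower. Of the 15, 3 had an unadjusted p below 0.05, and the median was 0.35, beside 0.28 over all genes. In KO cells 2 of the 15 were higher at 1W HFD than at 3W and none was lower, where 0.428% and 0.434% of all genes were. The median there was 1.12, beside 0.03 over all genes. The list was compiled with earlier results of these data known and is no independent evidence of its direction. Its 5 genes nearest to a region were Cd55, Bmp7, Creb5, Tek and Opcml, and 4 of these 5 rose at 1W HFD against 3W, none of the 5 passed against 6M and 1, Cd55, rose in KO cells. Counts of the other lists below are also to be read against the 4.78% of all genes that were higher and the 3.25% that were lower at 1W HFD against 3W. How many genes of a list were nearest to a region was not tested for any list. Of all 25746 genes, 905 were nearest to one, and neither gene length nor the number of all regions near a gene was taken into account.

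Cd55, a cell-surface inhibitor of complement and a marker of interstitial progenitors, held a region 17.6 kb downstream of its start (chr1:130441809-130445177, −log10 q 4.27 and 8.22). Its RNA was 516, 726, 724 and 729 TPM at 1W HFD, 98.4 to 305 (median 186) at 3W and 272, 278, 323, 223 and 390 at 12W HFD. The 1W HFD libraries were above all others of these groups. The change was 1.96 ± 0.26 against 3W (adjusted p = 3.84e-05, limma) and −1.19 ± 0.27 from 1W to 12W HFD (adjusted p = 0.00605, limma). At 6M, on regular diet, Cd55 was 444 and 604 TPM.

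Creb5, a transcription factor of the CREB family, held 3 regions (chr6:53321057-53322850, chr6:53324330-53326254 and chr6:53437725-53438584), the first 33.8 kb downstream of its start. Creb5 measured 54.1, 81.5, 102 and 125 TPM at 1W HFD, 15.3 to 63 (median 38) at 3W and 18.6, 37.7, 31.2, 34.5 and 31.6 at 12W HFD. Only the lowest 1W HFD library overlapped the 3W range, and none overlapped 12W HFD. The changes were 1.32 ± 0.30 (adjusted p = 0.00577, limma; 0.071 with the 2 groups fitted alone) and −1.50 ± 0.32 (adjusted p = 0.00256, limma).

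Bmp7, a secreted ligand of the BMP family, contained a region (chr2:172880824-172882246, −log10 q 7.86 and 9.1). Bmp7 RNA was low, at 5.88, 7.13, 10 and 9.48 TPM at 1W HFD, 0 to 6.83 (median 1.24) at 3W and 0.9, 0, 2.36, 0 and 0 at 12W HFD. One 3W library reached the 1W HFD range. The change against 3W was 1.94 ± 0.46 (adjusted p = 0.00855, limma; 0.0767 with a pseudocount of 0.1), and from 1W to 12W HFD it was −2.63 ± 0.49 (adjusted p = 0.000698, limma).

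Tek, the angiopoietin receptor, had a region 46.5 kb downstream of its start (chr4:94785792-94787698). Tek measured 58.5, 66.1, 105 and 75.1 TPM at 1W HFD, 13.3 to 67.1 at 3W and 12.5 to 39.7 at 12W HFD, overlapping at 3W. Its rise of 1.40 ± 0.39 (adjusted p = 0.0233, limma) was lost without WT 1W HFD replicate 3 or 4 (adjusted p = 0.101 and 0.0632), with no filter on low values (0.0695) and with the 2 groups fitted alone (0.0889). Tek is also an endothelial gene, and the summed level of the 12 endothelial markers was 173 to 493 TPM at 1W HFD and 53.5 to 135 at 3W, with no marker at 0 in every library of either group; its part in the value of Tek was not tested. Opcml, a cell adhesion molecule, measured 4.63, 4.18, 18 and 20.2 TPM at 1W HFD and 5.65 to 26.4 at 3W and did not pass (−0.61 ± 0.48, adjusted p = 0.506, limma).

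**Figure D4:**
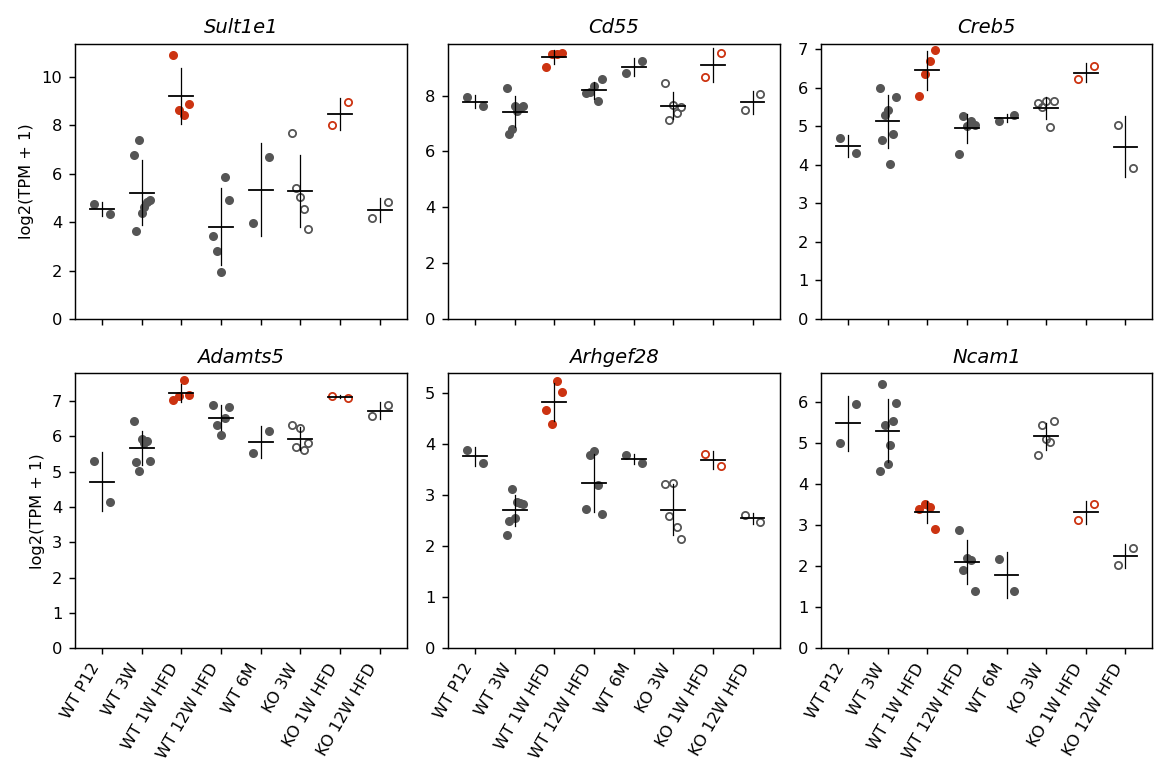
RNA level, as log2(TPM + 1), of 6 genes nearest to the regions, by group; points are libraries (filled WT, open KO, red 1W HFD), horizontal lines are group means and vertical lines are 1 SD. Sult1e1 and Cd55 in the 4 WT 1W HFD libraries lie above every WT 3W and WT 12W HFD library.

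Genes of the matrix enzyme list were nearest to 6 regions, those of collagens and matrix to 4, and those of TGF-beta response and smooth muscle to 4. Adamts5, an aggrecan-cleaving protease, contained 4 regions (chr16:85856731-85857775, chr16:85862037-85863040, chr16:85869305-85870852 and chr16:85882029-85884352), with −log10 q values of 3.63 and 4.99, 3.63 and 9.1, 2.45 and 2.88, and 13.78 and 3.55 in replicates 1 and 2. Adamts5 measured 129, 140, 193 and 143 TPM at 1W HFD and 31.2 to 85.8 (median 55.2) at 3W, with no overlap (1.57 ± 0.24, adjusted p = 0.000254, limma). It was 118, 79.4, 65, 90.8 and 113 TPM at 12W HFD (−0.71 ± 0.26, adjusted p = 0.117, limma). Of the 21 matrix enzymes listed, 3 rose against 3W and none fell, and of the 3 near a region (Adamts5, Lox and Timp3) 1 rose.

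Tgfbr2, the TGF-beta type II receptor, contained 3 regions (chr9:116109691-116111268, chr9:116125329-116126583 and chr9:116163169-116164663). Its RNA was 61.4, 120, 172 and 154 TPM at 1W HFD and 26.3 to 121 at 3W, overlapping. The rise of 1.29 ± 0.38 (adjusted p = 0.0324, limma) was lost in 6 of the 11 fits that each left out 1 library, those without WT 1W HFD replicate 2, 3 or 4 or WT 3W replicate 2, 5 or 7 (adjusted p 0.0618 to 0.141), with no filter (0.0962) and with the 2 groups alone (0.116). Fn1, fibronectin, measured 664, 1120, 1155 and 748 TPM at 1W HFD and 114 to 691 at 3W (1.42 ± 0.34, adjusted p = 0.00946, limma; 0.127 with the 2 groups alone), and its region lay in the neighbouring gene Atic. Of the 24 collagen and matrix genes listed 2 rose and none fell, and among 18 genes of TGF-beta response and smooth muscle 1 rose and 4 fell.

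Among 20 adipogenic transcription factors, 5 were nearest to 12 regions, links that were not set against gene length. Ebf2, a helix-loop-helix factor of adipocyte precursors, contained 4 regions and measured 121, 118, 124 and 130 TPM at 1W HFD against 15.1 to 121 (median 52.9) at 3W. The 3W libraries spread widely and the highest reached the 1W HFD level. Its rise of 1.38 ± 0.39 (adjusted p = 0.0281, limma) was lost without any 1 of the 4 WT 1W HFD libraries and without WT 3W replicate 2 or 3 (adjusted p 0.055 to 0.0793), with no filter (0.0865) and with the 2 groups alone (0.181). Nfia, Nfib, Ebf1 and Nr3c1, the glucocorticoid receptor, did not pass, with log2 changes of −0.02 ± 0.20 in Nfia, −0.17 ± 0.23 in Nfib and 0.06 ± 0.19 in Ebf1. Over the whole list 1 gene rose and 3 fell.

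Other lists gave fewer links. Of 13 genes of committed preadipocytes tested 2 rose and 1 fell, and the 1 near a region was Vit, an extracellular matrix gene. Vit was 165, 99.6, 85.3 and 104 TPM at 1W HFD and 29.4 to 98.6 at 3W (1.12 ± 0.35, adjusted p = 0.0451, limma; above 0.05 in 8 of 11 fits that each left out 1 library, among them every 1W HFD library, and also with no filter, 0.116, with a pseudocount of 0.1, 0.0504, and with the 2 groups alone, 0.085). It fell to 10.6 to 38.1 TPM at 12W HFD (−2.55 ± 0.37, adjusted p = 3.33e-05, limma), with no overlap. Interferon response genes rose in 5 of 17 and chemokine, cytokine and NF-kB genes in 4 of 28, with 1 of the latter lower, and none of those near a region passed, which were Ifit1 and Usp18 of the first list and Il1r1, Lif, Nfkb1 and Lcn2 of the second. Cd36 and Lpl, both of lipid uptake, were the lipid storage genes near a region, and neither passed. Of 20 cell cycle genes 0 were higher and 0 lower, and 0 had an unadjusted p below 0.05 in limma. Their median change was −0.27, and Ube2c was the 1 near a region. Of 15 inhibitors of adipogenesis 0 were higher and 3 lower, and Sox9 and Twist1, the 2 near a region, did not pass.

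Other genes were named by a rule that takes the 10 largest rises within 100 kb of a region. Arhgef28, a guanine nucleotide exchange factor, contained a region (chr13:98176379-98177598) and measured 24.4, 19.8, 36.4 and 31.1 TPM at 1W HFD, above the 3.64 to 7.7 of 3W and the 5.57, 12.7, 13.5, 8.19 and 5.22 of 12W HFD. The changes were 2.12 ± 0.28 (adjusted p = 5.67e-05, limma) and −1.58 ± 0.30 (adjusted p = 0.00089, limma). Tdo2, which opens tryptophan breakdown, had a region 20.8 kb from its start inside Ctso (chr3:81954229-81954934). Tdo2 was 27.7, 4.34, 2.41 and 2.41 TPM at 1W HFD, 0 to 1.02 at 3W and 0.03 to 0.39 at 12W HFD, so the groups did not overlap but 1 library was far above the other 3 (2.34 ± 0.40, adjusted p = 0.000527, limma). Pcsk6, a proprotein convertase (region chr7:65906474-65907470), measured 45.3, 43.8, 47.1 and 57.8 TPM at 1W HFD and 3.96 to 31.4 at 3W (2.18 ± 0.48, adjusted p = 0.00454, limma). At 6M on regular diet Pcsk6 was 38.9 and 49.5 TPM, and 1W HFD differed from it by 0.13 ± 0.66 (adjusted p = 0.949, limma). Cmah, which hydroxylates sialic acid, measured 19.6, 38.1, 37.3 and 34.4 TPM at 1W HFD and 1.49 to 15.2 at 3W (2.21 ± 0.47, adjusted p = 0.00398, limma). The last of the 10, beside the endothelial and interstitial genes, was the adhesion gene Cadm3, at 19.4, 38.3, 55 and 34.4 TPM against 1.38 to 38.1, a call (adjusted p = 0.0305, limma) lost in 6 of 11 fits without 1 library (0.0558 to 0.123), with no filter (0.0888) and with the 2 groups alone (0.141).

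Endothelial genes were among the largest rises. Pecam1, the endothelial adhesion molecule CD31, measured 18.3, 19.7, 61.8 and 11.5 TPM at 1W HFD and 0.05 to 2.87 (median 1.53) at 3W (3.38 ± 0.63, adjusted p = 0.00124, limma), and at 12W HFD it was 2.36 to 23. Its region (chr11:106669499-106670842, −log10 q 4.93 and 2.25) ended 28 bp from a peak of another list. Ecscr, an endothelial surface protein, was 20.1, 24.8, 32.4 and 14.1 TPM at 1W HFD and 0.27 to 9.89 at 3W (2.45 ± 0.53, adjusted p = 0.00422, limma). Of the 12 endothelial markers 6 rose and none fell, their summed levels are those given above for Tek, and their part in the values of Pecam1 and Ecscr was not tested. Macrophage markers moved too, with 15 of 19 higher and a sum of 55.2 to 345 TPM at 3W, 843 to 1201 at 1W HFD and 4725 to 14886 at 12W HFD, and none of the 19 was nearest to a region. Fibroblast and adipose progenitor markers summed to 21250 to 31837 TPM at 3W and 25775 to 31453 at 1W HFD. In bulk libraries, fewer cells of a type and less RNA per cell cannot be told apart.

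**Figure D5:**
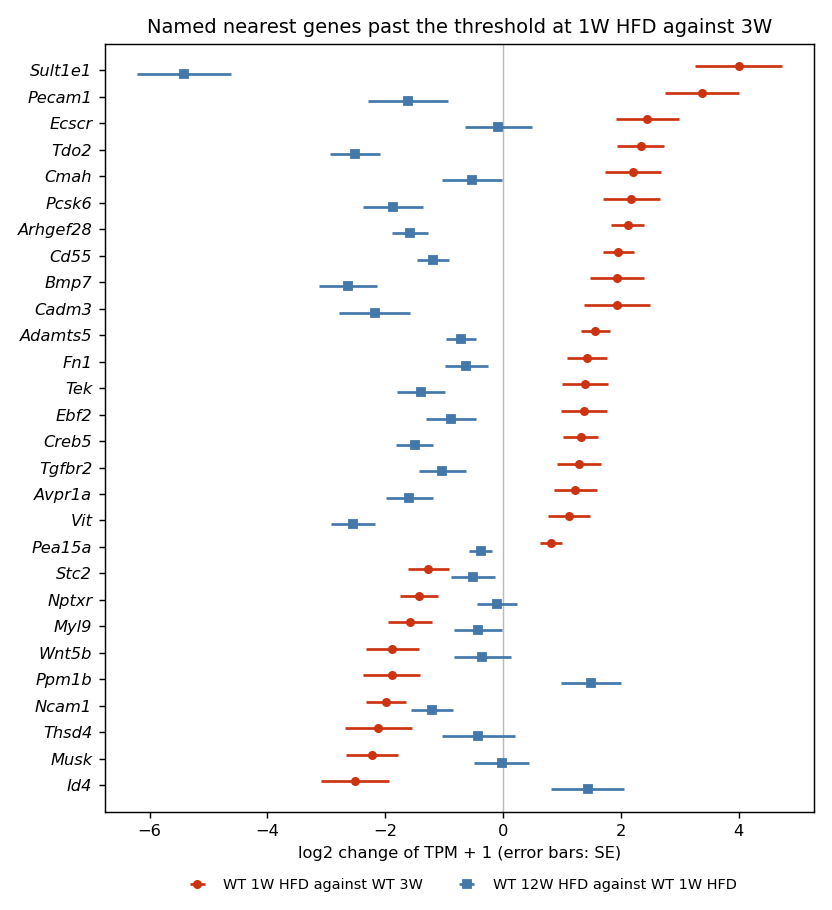
Log2 changes of TPM + 1 with standard errors for named nearest genes that passed in WT 1W HFD against 3W, for that comparison and for WT 12W against 1W HFD, which share the 1W HFD libraries. Sult1e1 has the largest change in each, 4.00 and −5.41, and Id4 the largest fall against 3W, −2.51.

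Genes that fell at 1W HFD were 25, and their share was near the background. Id4, an inhibitor of helix-loop-helix factors, had a region 63.4 kb upstream of its start (chr13:48196815-48197734). Id4 measured 5.19, 5.87, 2.17 and 1.95 TPM at 1W HFD and 7.42 to 55 (median 24.9) at 3W, without overlap (−2.51 ± 0.58, adjusted p = 0.00718, limma). Ncam1, a neural cell adhesion molecule, was 9.61, 10.4, 9.88 and 6.58 TPM at 1W HFD against 19 to 86.2 at 3W (−1.99 ± 0.34, adjusted p = 0.000535, limma). Musk, a receptor tyrosine kinase of the neuromuscular junction, contained a region 7.45 kb from its start and was 3.23, 1.77, 0.31 and 0.64 TPM at 1W HFD against 4.4 to 23.2 at 3W (−2.22 ± 0.44, adjusted p = 0.00199, limma). Myl9, the myosin light chain of smooth muscle, measured 422, 296, 304 and 146 TPM at 1W HFD and 447 to 2091 at 3W (−1.58 ± 0.38, adjusted p = 0.00897, limma), a call lost without WT 1W HFD replicate 4 (0.0666). Wnt5b, a Wnt ligand, was 3.75, 9.34, 3.92 and 1.99 TPM at 1W HFD and 7.94 to 41.4 at 3W (−1.88 ± 0.45, adjusted p = 0.00897, limma), also lost without that library (0.0562). Of 23 Wnt pathway genes tested 4 fell and none rose, and Fzd1 and Dkk2, the other 2 near a region, did not pass. Other falls named by the same rule were Thsd4, Ppm1b, Nptxr and Stc2, with log2 changes of −2.12, −1.89, −1.42 and −1.27. Of these only Nptxr, a neuronal pentraxin receptor, passed in every fit without 1 library, and it did not pass with the 2 groups alone (0.0506). Ppm1b was lost without WT 1W HFD replicate 1, Thsd4 without replicate 1 or 3, and Stc2 without replicate 1 or 4 (adjusted p 0.0544 to 0.072). Thsd4 was also lost with no filter (0.0607) and with the 2 groups alone (0.102), and Stc2 with a pseudocount of 0.1 (0.0841) and with the 2 groups alone (0.0523).

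Other regions lay near genes that were lower at 12W than at 1W HFD. Arl4d, a small GTPase nearest to 3 regions, measured 55, 37.1, 49 and 46.4 TPM at 1W HFD, 6.01 to 114 at 3W and 3.82, 7.47, 8.46, 5.43 and 4.26 at 12W HFD. It did not pass against 3W (0.46 ± 0.50, adjusted p = 0.658, limma) and changed by −2.83 ± 0.53 from 1W to 12W HFD (adjusted p = 0.000677, limma). Avpr1a measured 117, 48.4, 77.5 and 74.5 TPM at 1W HFD, 21 to 68.7 at 3W and 29.5, 24.3, 19.5, 22.3 and 28 at 12W HFD. Its rise of 1.23 ± 0.37 (adjusted p = 0.0375, limma) was lost in 8 of 11 fits that left out a library (adjusted p 0.0515 to 0.137, all but those without WT 3W replicates 1 and 3 and WT 1W HFD replicate 2), with no filter (0.103) and with the 2 groups alone (0.0507), and its fall of −1.59 ± 0.40 (adjusted p = 0.0122, limma) without WT 1W HFD replicate 1 (0.0658).

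Against WT cells at 6M on regular diet, an older age, 52 of the 686 genes (7.58%) were higher at 1W HFD, where 3.88% of all genes tested were higher, and 8 (1.17%) were lower, where 1.99% of all were. The median of all genes was itself 0.28 in this comparison and that of the nearest genes 0.47. After quantile scaling, which brought the median of all genes to 0.08, 25 (3.64%) were higher, where 1.26% of all genes were. Then 13 (1.9%) were lower, where 2.68% of all were. The higher count ran from 26 to 43 as single 1W HFD libraries were left out (3.79% to 6.27%, beside 1.84% to 3.26% of all genes). With 2 libraries at 6M, leaving one out left 1 library, and without WT 6M replicate 1 most of the excess over all genes was lost. Lox, a collagen crosslinking enzyme with a region 1.3 kb from its gene end, was 101, 169, 143 and 73.8 TPM at 1W HFD and 32 and 19.3 at 6M (2.17 ± 0.37, adjusted p = 0.00162, limma; 0.0611 with the 2 groups alone). Tek (56 and 56.1 TPM), Fn1 (670 and 618) and Cmah (27.4 and 16.9) at 6M were near or within their 1W HFD values. Of the genes that fell, Musk (0.33 and 0.58) and Ncam1 (3.54 and 1.64) were as low or lower at 6M, and Wnt5b (12.5 and 22.2) was higher. Creb5 (34.3 and 38.1), Bmp7 (1.28 and 3.93), Adamts5 (44.8 and 70.2), Arhgef28 (12.7 and 11.4), Tdo2 (0.42 and 0) and Pecam1 (2.79 and 3.04) were below all their 1W HFD values. Of these, Adamts5 and Tdo2 passed (adjusted p = 0.0159 and 0.0104, limma, and 0.0583 and 0.214 with the 2 groups alone). Creb5, Bmp7, Arhgef28 and Pecam1 did not pass. Sult1e1 was 14.8 and 104 TPM at 6M (3.87 ± 1.03, adjusted p = 0.0259, limma), a call lost without WT 1W HFD replicate 1 (0.0636) and without WT 6M replicate 1 (0.323), with no filter (0.0693) and with the 2 groups alone (0.11).

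In KO cells, 5 of the 686 genes (0.729%) were higher at 1W HFD than at 3W, where 0.428% of all genes tested were higher, and 2 (0.292%) were lower, where 0.434% of all were. The higher genes were Cd55, Gpr1, Svep1, Prss23 and Ino80c and the lower were Ncam1 and Slc1a3, of which Svep1, Prss23, Ino80c and Slc1a3 were chosen after their values were seen. With 2 KO 1W HFD libraries these counts ran from 0 to 12 and from 0 to 5 as single libraries were left out. The 12 came without KO 3W replicate 1 and were 1.75%, beside 0.83% of all genes. Cd55 was 403 and 733 TPM at KO 1W HFD and 139 to 346 at KO 3W (1.44 ± 0.34, adjusted p = 0.0386, limma). That call was lost without either KO 1W HFD library and without KO 3W replicate 2, 3, 4 or 5 (adjusted p 0.0501 to 0.535), the call of Ncam1 without the same libraries (0.0589 to 0.345), and both with no filter (0.0785 each) and with the 2 groups alone (0.26 and 0.0639). Ncam1 was also lost with a pseudocount of 0.1 (0.0627). The call of Gpr1 was lost without either KO 1W HFD library (0.211 and 0.0777). Sult1e1 was 257 and 494 TPM against 12 to 206 (3.20 ± 0.99, adjusted p = 0.137, limma). Between KO and WT at 1W HFD none of the 686 passed in limma, where 0.0255% of all genes were higher and 0% lower, and 22 had an unadjusted p below 0.05. The difference between the WT and KO changes from 3W to 1W HFD likewise passed for none of the 686 in limma, where 0% of all genes were higher and 0.00639% lower, and 24 had an unadjusted p below 0.05. The titles tie the KO 3W libraries to WT 3W libraries in pairs numbered 1 to 5, without saying what a pair shares. With these pairs as a block, an alternative added after seeing the data, none of the 686 passed in limma and 30 had an unadjusted p below 0.05. The labels name no pairs at 1W HFD. Arhgef28 was 13 and 10.8 TPM in the KO libraries and 19.8 to 36.4 in WT at 1W HFD. It passed neither in KO against WT at 1W HFD nor in the difference between the WT and KO changes.

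For 199 regions the centre lay in a gene other than the nearest one. Rbms1, an RNA-binding protein, contained 4 regions of which 1 was assigned to it, and rose by 0.65 ± 0.14 at 1W HFD (adjusted p = 0.00421, limma). Slit3, a secreted guidance protein, also contained 4 and did not pass (0.33 ± 0.30, adjusted p = 0.572, limma). Zbtb20 (0.07 ± 0.22, adjusted p = 0.907, limma), Kat6b (0.25 ± 0.44, adjusted p = 0.81, limma) and Ulk4 (0.86 ± 0.46, adjusted p = 0.276, limma) did not pass. Each contained 3 regions, of which 1 was assigned to it. Hivep2, a zinc finger factor, contained 3, all assigned to it, and rose by 1.10 ± 0.29 (adjusted p = 0.0182, limma). Plxdc2, whose 3 regions were also assigned to it, did not pass (0.69 ± 0.22, adjusted p = 0.053, limma). These genes were chosen after their values were seen from those that contained at least 3 regions.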

How the data were processed

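The members and gene lists were chosen with earlier results of these data known. Peak lists were made per library, per the submitters' processing notes with Bowtie2 2.3 and MACS2 on mm10. No source used here gives their settings. Each deposited peak carries an integer score, a fold enrichment ratio, a −log10 p and a −log10 q from the authors' peak caller. RNA values are the authors' deposited TPM per gene, with STAR 2.5.3a and RSEM named in the submitters' processing notes; TPM keeps no read depth, so depth is unknown, and the gene columns summed to 918008 to 969385. Trim Galore 0.6 and FastQC are named too, with no stated role here.

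Peaks were merged into regions with Python 3.11.15. Genes with at least 1 TPM in 2 or more of 29 libraries (15659 of 25746) were tested on log2(TPM + 1) by limma 3.58.1 in R 4.3.3, with 8 group means, 21 residual degrees of freedom and a trend, at an adjusted p of 0.05. RNA replicate numbers did not pair samples; the titles name WT and KO pairs at 3W only. KO and WT values come from separate deposited tables. RefSeq starts were matched for 16687 of 25746 genes, none on chromosome 18, and the other 9059 were linked by either gene end. A first link by RefSeq starts alone was replaced after its RNA counts had been seen; it is kept as an alternative. Genes named are those nearest to the 25 strongest regions, nearest to most regions, the 10 largest rises and falls within 100 kb, and those in a gene list. One gene that met this rule is not reported here. The scripts were tested on simulated data. Alternatives tried were the pseudocount, the low-value filter, quantile scaling, the groups compared, the replicate block, stricter peaks, other links and leaving out each library.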

Additional observations from a re-analysis of the deposited data

Results flagged for a closer look

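In 136 pairs of gene and group of 4 to 10 libraries (34 genes), 10 libraries stood apart from their group by Dixon's ratio on log2(TPM + 1), a criterion that chance meets in about 1 in 20 groups. Cd55 was 516 TPM in WT 1W HFD replicate 1 and 724 to 729 in the other 3, and Cmah in the same library was 19.6 against 34.4 to 38.1. Avpr1a was 68.7 TPM in WT 3W replicate 3 against 21 to 34.3. In WT 12W HFD replicate 1, Ebf2 was 49.1 TPM against 70 to 73 and Creb5 was 18.6 against 31.2 to 37.7. Creb5 was 30.8 TPM in KO 3W replicate 4 against 44.3 to 50, Fn1 was 280 in KO 3W replicate 2 against 519 to 659, and Nptxr was 0.62 in KO 3W replicate 1 against 2.48 to 3.21. Gpr1 was 0.85 TPM in WT 3W replicate 4 and 0.32 in KO 3W replicate 3, where the other libraries of each group were at 0 to 0.05.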

How the results depend on the processing

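Requiring a −log10 q of 5 in both lists left 180 regions, cutting the lists to equal length left 653, and leaving out one library's list gave 1043 to 6731. The share within 1 kb of a matched RefSeq start was 3.89% for the stricter regions, and the share of all 1014 within 5 kb was 10.2%. In WT 1W HFD against 3W, higher and lower counts were 35 (5.1%) and 15 (2.19%) with the 2 groups alone, beside 2.85% and 1.81% of all genes. For the stricter regions (117 genes) they were 15 (12.8%) and 3 (2.56%), beside 4.78% and 3.25%. Leaving out libraries gave 38 to 71 higher (5.54% to 10.3%, beside 2.52% to 5.63%) and 14 to 31 lower (2.04% to 4.52%, beside 1.66% to 4.3%). Among 1185 genes within 50 kb, 88 (7.43%) were higher and 41 (3.46%) lower, beside 4.78% and 3.25%. From 1W to 12W HFD, leaving out libraries gave 4 to 8 higher (0.583% to 1.17%, beside 2.61% to 3.91% of all genes). It gave 44 to 65 lower (6.41% to 9.48%, beside 1.55% to 2.85%). By RefSeq starts alone, an alternative added after seeing the data, 10 were higher. That link gave 835 nearest genes, of which 555 were shared with those used. The number tested among them is not given here, and 3.54% of all genes were higher from 1W to 12W HFD. Against 6M the higher and lower counts were 25 (3.64%, beside 1.26%) and 13 (1.9%, beside 2.68%) after quantile scaling. Without single 1W HFD libraries they were 26 to 43 (3.79% to 6.27%, beside 1.84% to 3.26%) and 5 to 7 (0.729% to 1.02%, beside 1.28% to 1.58%). With the groups alone they were 20 (2.92%, beside 1.26% of all genes) and 5 (0.729%, beside 0.824%). In KO cells 3 were higher unfiltered (0.331%, beside 0.144% of all genes). After quantile scaling and in the groups alone 3 were higher again (0.437% each, beside 0.37% and 0.255%). There 0 were lower unfiltered, 1 in the groups alone and 1 by RefSeq starts. Without KO 3W replicate 1, 12 (1.75%, beside 0.83%) were higher, and without KO 3W replicate 2, 2 (0.292%, beside 0.192%). Samples sharing a replicate number did not deviate together (r −0.14 to 0.02). With the replicate block, limma called 0 higher and 0 lower in 1W HFD against 3W, against 6M and in KO cells. Against 3W and 6M it also called 0% of all genes. From 1W to 12W HFD it called 4 higher (0.583%, beside 1.21% of all genes) and 15 lower (2.19%, beside 0.543%). The named genes that passed kept their direction in every alternative run. Of the 30 that passed against 3W, 18 passed in every fit without 1 library, 12 in every alternative but the block and 0 with the block, and 13 were lost with the 2 groups alone (adjusted p 0.0506 to 0.181). The labelled pairs at 3W as a block left 0 calls for the difference between WT and KO changes. Deviations of paired libraries from their group means correlated at r of −0.13 to 0.48. The cause of these shifts was not tested. The planned wider window for motifs was not run, because no genome sequence was used here. Peak lists without read counts do not show whether a region with no peak was closed or under the caller's threshold.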
